A study of Homo sapiens with 6 samples.

Results

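Translation initiation and elongation factors were read on 6 expression arrays of EJ bladder cancer cells, also known as T24, an established human line of invasive bladder cancer. The members were 66 of the 19775 genes that the arrays name, read by 169 of 54613 probe sets. They were chosen by symbol: initiation factors (EIF1 to EIF6 families without the EIF2AK kinases), elongation factors (EEF1 and EEF2 families), the termination factors ETF1, GSPT1 and GSPT2, the poly(A) binding proteins, the MNK kinases MKNK1 and MKNK2, and the stress granule proteins G3BP1 and G3BP2. The rule also took 2 genes without a protein product, EIF1B-AS1 and EIF3J-DT. The 2 groups were FOXA1 cells (3 arrays), which received a FOXA1 construct, and control cells (3 arrays), which received an empty plasmid that the sample labels call pUC19. Both groups were treated with Lipofectamine and were the same line, grown in DMEM with fetal calf serum. The share of cells that took up a plasmid was not analysed here, and the labels give no other treatment that separates the groups. Whether replicate arrays stem from separate cultures is not said in the labels, so a p-value here weighs a difference against array-to-array spread alone, and that spread may be technical.

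Translation begins when eIF4F binds the cap of the mRNA through eIF4E, and eIF4G links it to the poly(A) binding protein and to eIF3 on the small ribosomal subunit. eIF2 carries the initiator tRNA, eIF1 and eIF1A keep the scanning ribosome faithful to the start codon, and eIF5 and eIF5B allow the large subunit to join. MNK kinases dock on eIF4G and phosphorylate eIF4E, and eEF1A and eEF2 then drive elongation. Many of these mRNAs begin with a pyrimidine tract, through which mTORC1 and LARP1 set how well they are translated. G3BP1 and G3BP2 nucleate the granules in which stalled initiation complexes gather under stress.

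The tract was looked for at the RefSeq transcript starts of the members (GRCh38.p14), since it is the sequence feature best known for this family. A tract was a C at the first transcribed base followed by at least 4 bases that were C or T, on the transcribed strand. EEF1D, EIF3E, EIF3H, EIF4EBP1 and PABPC1 were left out of the member counts, so the member shares do not cover them. The tract was found in 11 of the 52 other member genes with a start in the table (21.2%), against 933 of 15382 genes overall (6.07%). By single starts it was 11 of 73 (15.1%), against 4.07% of all 35116 starts. The genes were EEF1A1, EEF2, EIF2A, EIF2D, EIF2S3, EIF3D, EIF3F, EIF3K, EIF3M, EIF4A2 and EIF4B. A match is a description of the letters only. Shown are windows of 30 bases, 15 before and 15 from the start, for 5 of them whose signals are described here, with the tract in capitals, and for MKNK2, which has none. They lie at chr6:73521018-73521047 (minus strand, EEF1A1), chr19:3985449-3985478 (minus, EEF2), chrX:24054941-24054970 (plus, EIF2S3), chr11:7987322-7987351 (plus, EIF3F), chr12:53006441-53006470 (plus, EIF4B) and chr19:2051230-2051259 (minus, MKNK2).
EEF1A1: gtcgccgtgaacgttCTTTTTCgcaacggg
EEF2: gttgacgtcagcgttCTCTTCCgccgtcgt
EIF2S3: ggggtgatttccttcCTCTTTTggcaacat
EIF3F: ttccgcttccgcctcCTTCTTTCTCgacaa
EIF4B: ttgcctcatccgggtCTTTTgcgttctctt
MKNK2: cggcggcgacgcgcccggctcctctcagcg

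Each signal was a MAS5 value on a linear scale, scaled by array, and a gene was read by its brightest probe set. Differences are log2 FOXA1 minus control with the SE of limma, and adjusted p-values are Benjamini-Hochberg over all 54613 probe sets. A G3BP1 probe set that the study's own table holds has the opposite direction there, and whether either of these directions is turned round is not settled. All directions here follow the sample labels. FOXA1 itself gave signals of 38.9, 34.8 and 31.9 in FOXA1 cells against 21.8, 24.4 and 21.0 in control cells at 204667_at (log2 difference 0.65 ± 0.23, limma adjusted p = 0.307), without overlap. Its other probe set, 237086_at, ran the other way and overlapped (means 5.3 in FOXA1 and 7.1 in control cells, -0.54 ± 0.64, limma adjusted p = 0.800). The cell line markers KRT18 (2478 in FOXA1 and 2261 in control cells) and VIM (4068 and 3836) were bright, and the means of CDH1 and KRT19 lay under the 20th percentile of all signals in both groups. The mesenchymal markers CDH2 (means 361.6 in FOXA1 and 494.8 in control cells, -0.45, limma adjusted p = 0.118) and FN1 (15.4 and 24.6, -0.88, 0.514) were lower without overlap, and neither passed the threshold. The 6 luminal urothelial markers summed to 72.7 to 103.3 in FOXA1 and 58.4 to 81.4 in control arrays, and of them UPK1B was higher without overlap (means 25.3 and 14.9, 0.80, limma adjusted p = 0.420). Of 12 markers of leukocytes, endothelium, muscle and nerve the summed signal was 2008 to 2346 in FOXA1 and 1922 to 2250 in control arrays, nearly all of it TUBB3, and PECAM1, of endothelium, was higher without overlap (means 49.9 in FOXA1 and 36.2 in control cells, 0.47, limma adjusted p = 0.406). The 3′ over 5′ ACTB signal ratio, which rises as RNA degrades, was 2.37 ± 0.228 in FOXA1 and 1.73 ± 0.188 in control arrays (SD, n = 3 each; p = 0.1, two-sided exact permutation test, and 3 against 3 arrays cannot give less). The same ratio for GAPDH was 0.920 ± 0.0217 in FOXA1 and 0.899 ± 0.00926 in control arrays, and the groups overlapped (p = 0.3, two-sided exact permutation test). The part of these markers and of the 3′ over 5′ ratios in the results was not tested. In bulk RNA a lower share of cells and less RNA per cell cannot be told apart. The number of arrays limits the precision, and no detection calls were used.

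Of the 66 member genes, MKNK2 fell in FOXA1 cells and no member rose after adjustment (limma), where 0.0303% of all genes fell and 0.0607% rose. Before adjustment 19 members were higher and 4 lower at p under 0.05, against 9.07% and 5.49% of all genes. All 3 FOXA1 signals lay above all 3 control signals in 24 member genes (36.4%), against 12.5% of all genes. The opposite held in 4 (EEF1AKMT2, EIF2S3, EIF4E2 and MKNK2), which is 6.06% against 7.25%, and 38 overlapped. The log2 difference was above 0 in 47 members and below 0 in 19, with a median of 0.12, against 0.07 over all genes, of which 59.2% were above 0. Among 41 members with a mean signal above 500, a limit set after the values were seen, 16 were higher and 2 lower without overlap, against 14.1% and 14.9% of the 2623 genes that bright. The mean signals of EIF1AY, GSPT2 and PABPC5 lay under the 20th percentile of all signals (3.5) in both groups, and they are only counted.

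The number of members that were higher depended on how the arrays were scaled. Under quantile normalization 16 members were higher (24.2%, against 10.6% of all genes) and 7 lower without overlap (10.6%, against 8.91%), and the median was 0.065. With each array centred on its median, no member was higher without overlap (4.86% of all genes) and 4 were lower (8.87% of all genes). The median was then -0.06, with 27 members above and 39 below 0, and the median over all probe sets moved to -0.10, against 0.08 as deposited. The values that follow are therefore relative to the deposited scaling. The summed signal of the members was 111072 to 120135 in FOXA1 arrays and 105394 to 107035 in control arrays. The 99.9 percentile of all signals was likewise higher, at 7230 to 8863 in FOXA1 and 6764 to 6972 in control arrays.

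**Figure D1:**
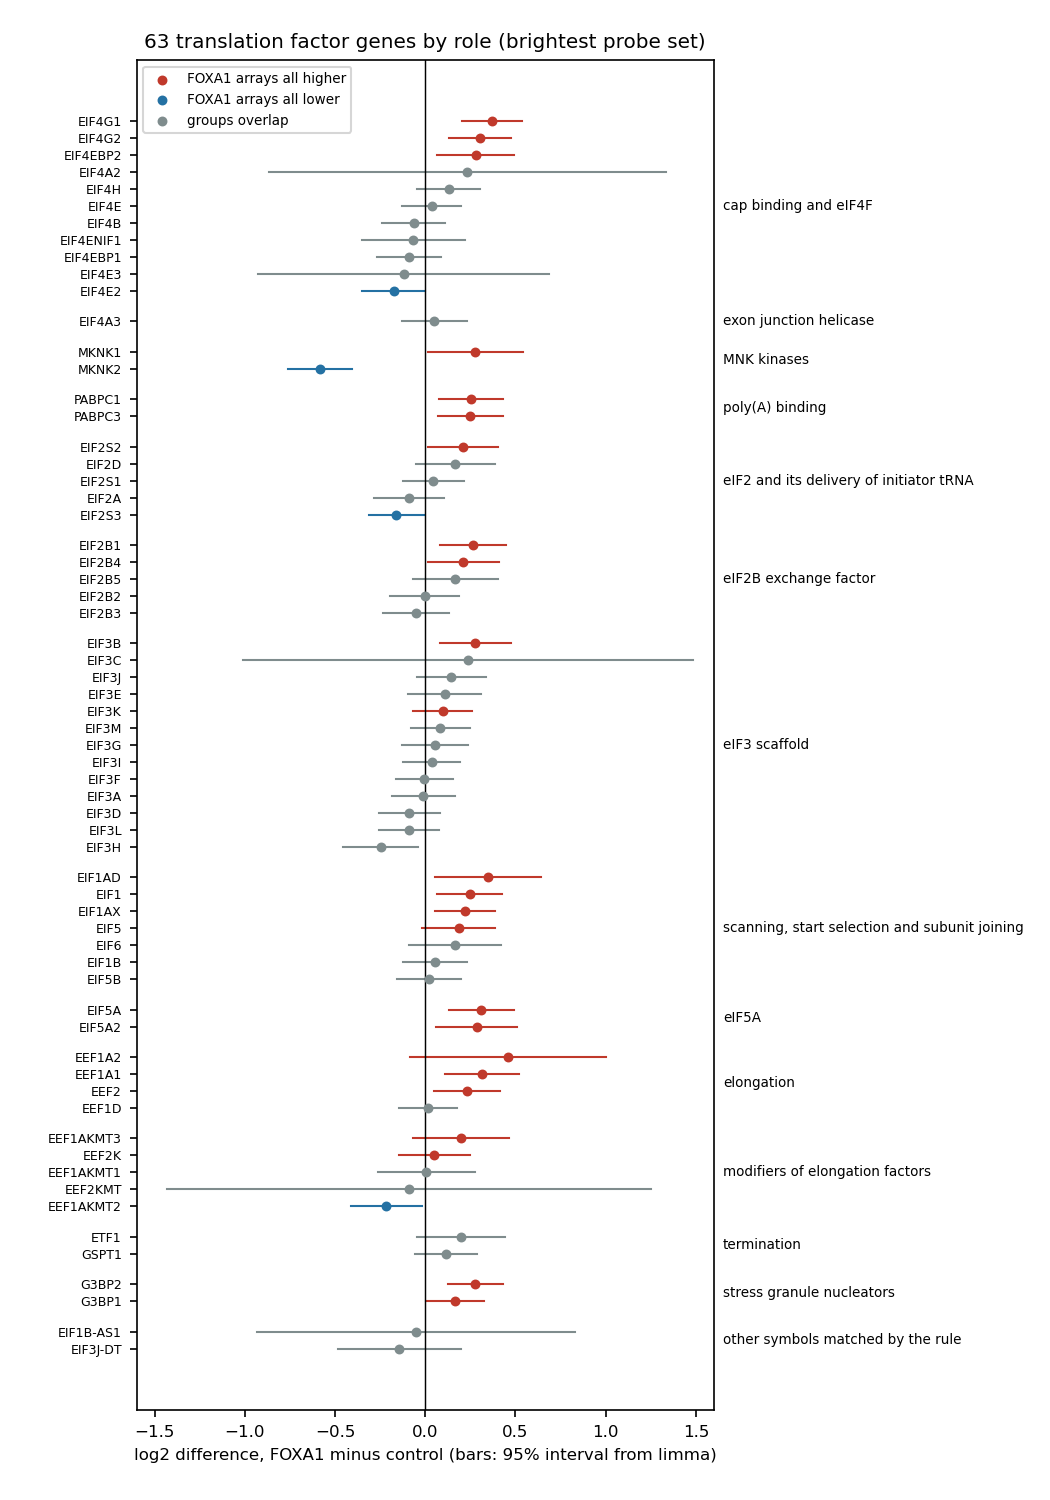
Log2 difference, FOXA1 minus control, of 63 member genes, without the 3 whose means lay under the 20th percentile in both groups, by role (points, with 95% intervals from limma). Red marks genes whose 3 FOXA1 signals all lay above the 3 control signals, blue the reverse, grey overlap. MKNK2 stands alone at -0.58, and most others lie between -0.25 and 0.37.

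The cap binding complex had no direction in common, with 6 of 11 genes above and 5 below 0. EIF4G1, the scaffold that holds eIF4E, eIF4A and the MNK kinases, gave 701.4, 726.3 and 696.6 in FOXA1 against 558.8, 522.6 and 563.5 in control cells at 208625_s_at. The groups were apart by more than the spread within either, but the difference of 0.37 ± 0.075 missed the threshold (limma adjusted p = 0.111). It was 0.40 under quantile normalization. The second EIF4G1 probe set, 208624_s_at, overlapped (0.15 ± 0.18). EIF4G2, a related scaffold used in cap-independent initiation, gave 4961.1, 5003.4 and 4442.3 in FOXA1 against 3953.8, 3693.9 and 4008.1 in control cells (0.30 ± 0.078, limma adjusted p = 0.190).

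EIF4E, the cap binding subunit, overlapped, at 0.04 with a 95% interval from -0.13 to 0.20, and none of its 5 probe sets separated the groups. EIF4E2, a cap binding protein that represses translation, was lower without overlap at its brightest probe set, 213571_s_at (465.4, 455.2 and 445.6 in FOXA1, 519.2, 483.2 and 541.6 in control cells, -0.18 ± 0.080). At 226734_at it was higher, with 113.2, 111.5 and 108.3 in FOXA1 and 78.8, 83.1 and 94.7 in control cells (0.38 ± 0.12). These 2 of its 4 probe sets gave opposite directions, both without overlap and neither past the threshold. Of the 4E-BP repressors, which compete with eIF4G for eIF4E, EIF4EBP2 was higher without overlap at 224653_at (301.2, 300.1 and 326.1 in FOXA1, 268.0, 228.6 and 269.1 in control cells, 0.28 ± 0.097). EIF4EBP1 overlapped (-0.09, interval -0.27 to 0.09).

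EIF4B, which stimulates the eIF4A helicase, was named after its values were seen. It gave 852.6, 824.2 and 742.8 in FOXA1 against 1107.1, 1177.2 and 1033.0 in control cells at 211937_at (-0.46 ± 0.084, limma adjusted p = 0.0941). This probe set passed when dim probe sets were left out (adjusted p = 0.0418). The brightest EIF4B probe set, 211938_at, overlapped, with 1412.2, 1373.1 and 1351.4 in FOXA1 and 1403.1, 1582.2 and 1350.3 in control cells (-0.06, interval -0.24 to 0.11). The helicase EIF4A1 had no probe set with a single symbol, and EIF4A2 was read only by 1556350_a_at, with signals of at most 10.0. EIF4A3, the related helicase of the exon junction complex, overlapped (0.05, interval -0.13 to 0.23).

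MKNK2, the MNK kinase with high basal activity, was the only member past the threshold. At 218205_s_at its signal was 741.1, 853.8 and 832.0 in FOXA1 cells against 1241.0, 1225.7 and 1163.1 in control cells, means of 809 ± 59.8 and 1210 ± 41.3 (SD, n = 3 each). Every FOXA1 array was below every control array, and the ratio of the geometric means was 0.668 (log2 difference -0.58 ± 0.080, limma adjusted p = 0.0382). The call was lost without the intensity trend of limma (adjusted p = 0.499), with a floor at the 20th percentile (0.0999) and with median centring (-0.77, adjusted p = 0.351), and held under quantile normalization (-0.55, 0.0327). Leaving out FOXA1 replicate 1 or 2 or any 1 control array also lost it (0.0926 to 0.202), while the difference stayed between -0.62 and -0.52.

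The other MKNK2 probe set, 223199_at, ran the other way. It gave 74.2, 61.0 and 70.5 in FOXA1 and 50.6, 56.1 and 54.9 in control cells, again without overlap (0.34 ± 0.15, limma adjusted p = 0.421). The log2 ratio of 218205_s_at to 223199_at within an array was 3.32 to 3.81 in FOXA1 and 4.41 to 4.62 in control arrays, a difference of -0.93 (two-sided exact permutation test, p = 0.1, adjusted p = 0.244 over 22 probe set pairs). That is the smallest p that 3 against 3 arrays allow, the pair was compared after its opposite directions were seen, and which of the 2 probe sets follows the kinase was not tested. MKNK1, its paralog that MAP kinases switch on, was higher without overlap (173.6, 182.8 and 179.7 in FOXA1, 128.5, 145.2 and 171.4 in control cells, 0.28 ± 0.12, limma adjusted p = 0.411).

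**Figure D2:**
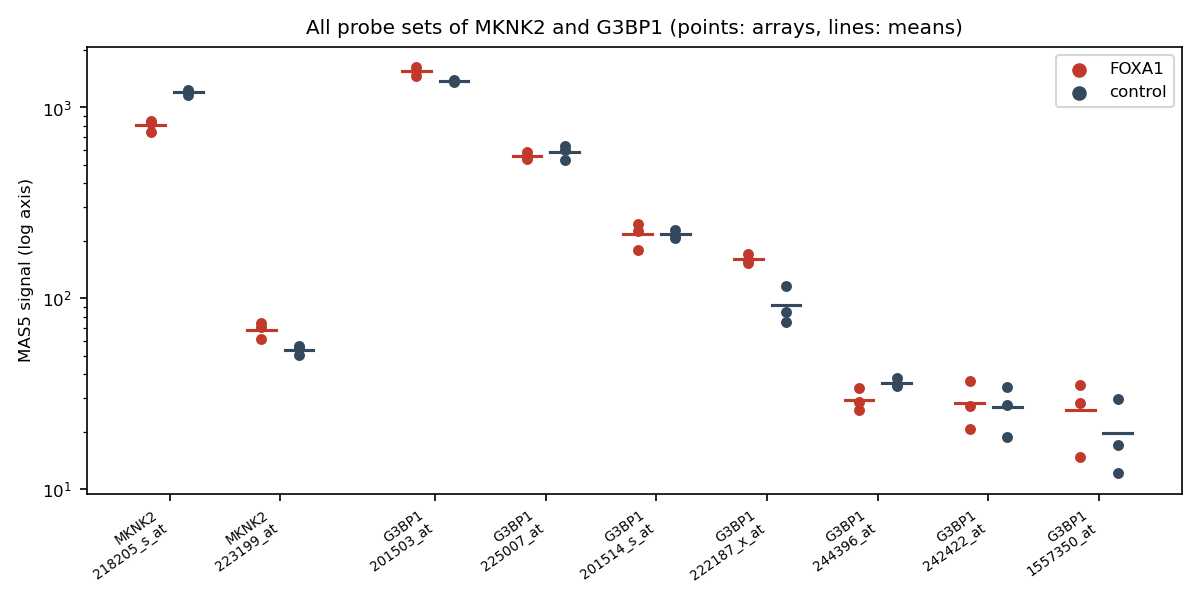
MAS5 signal (log axis) of each array for the 2 MKNK2 and 7 G3BP1 probe sets, FOXA1 in red and control in dark blue, with lines at the means. The 2 MKNK2 probe sets separate the groups in opposite directions (-0.58 and 0.34), and of the G3BP1 probe sets 222187_x_at shows the widest separation, at 0.83.

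Of the 3 genes of poly(A) binding proteins, which close the loop between the mRNA tail and eIF4G, PABPC1 and PABPC3 were higher without overlap. PABPC1 gave 6458.3, 6231.1 and 5504.9 in FOXA1 against 5063.6, 5204.9 and 4953.6 in control cells at 215157_x_at (0.25 ± 0.081, limma adjusted p = 0.270). Its other probe set, 1560770_at, was dim and overlapped (means 9.1 in FOXA1 and 9.8 in control cells, -0.07 ± 0.65). PABPC3 gave 0.25 ± 0.082, but it is an intronless copy of PABPC1 and its probe set carries the _x_at suffix for shared sequence, so that the 2 cannot be told apart here. Under quantile normalization they were at 0.08 and 0.05.

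The eIF2 subunits did not move together. EIF2S2, the beta subunit, was higher without overlap at its brightest probe set, 208726_s_at (3768.7, 3957.4 and 3419.3 in FOXA1, 3309.6, 3418.2 and 2916.5 in control cells, 0.21 ± 0.088). Its other probe set, 208725_at, lay below 0 and overlapped (means 99.5 in FOXA1 and 112.1 in control cells, -0.17 ± 0.13). EIF2S3, the gamma subunit that holds GTP and the initiator tRNA, was lower without overlap at 2 of 3 probe sets. Its brightest, 224935_at, gave 1314.0, 1300.5 and 1288.3 in FOXA1 against 1455.0, 1413.6 and 1491.7 in control cells (-0.16 ± 0.069). At 205321_at it gave 373.1, 374.0 and 260.2 in FOXA1 against 468.5, 502.5 and 447.7 in control cells (-0.51 ± 0.13, limma adjusted p = 0.192).

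EIF2S1, the alpha subunit whose phosphorylation shuts down initiation, differed by probe set and was named after its values were seen. It was higher without overlap at 201142_at (682.8, 683.4 and 797.2 in FOXA1, 479.8, 564.5 and 611.0 in control cells, 0.39 ± 0.10, limma adjusted p = 0.200). At its brightest, 201144_s_at, it overlapped (0.05, interval -0.12 to 0.21). Of eIF2B, which reloads eIF2 with GTP, EIF2B1 was higher without overlap, with 615.5, 636.1 and 645.9 in FOXA1 and 528.7, 486.3 and 570.3 in control cells (0.26 ± 0.083). EIF2B4 was as well at both probe sets (0.21 and 0.32), and EIF2B2, EIF2B3 and EIF2B5 overlapped, EIF2B2 at 0.00 with an interval from -0.19 to 0.19.

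Of 13 genes of the eIF3 scaffold, the largest of the initiation factors, 5 lay below 0 and 8 above it, and the median was 0.06. Without overlap 2 were higher and none lower, where 12.5% and 7.25% of all genes were, and the other 11 overlapped. EIF3B, a core scaffold subunit, gave 1117.0, 1051.3 and 1199.6 in FOXA1 against 869.5, 879.7 and 1032.7 in control cells at 208688_x_at (0.28 ± 0.090, limma adjusted p = 0.276). A second, 203462_x_at, gave 0.36 ± 0.084 without overlap, and both carry the _x_at suffix for shared sequence. The rest of the 6 EIF3B probe sets, with mean signals of at most 293, lay below 0 and overlapped (-0.05 to -0.96). EIF3K was the other eIF3 gene that was higher without overlap, at 0.10 (interval -0.07 to 0.26).

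Lower values in eIF3 lay mostly at second probe sets. EIF3H gave 2063.5, 2457.4 and 1997.0 in FOXA1 against 2558.4, 2764.6 and 2394.3 in control cells, with 1 FOXA1 array above the lowest control array (-0.25 ± 0.094, limma adjusted p = 0.350), and its other probe set gave -0.30. EIF3A, the largest subunit and named after its values were seen, was lower without overlap at 200596_s_at (628.3, 641.5 and 682.3 in FOXA1, 882.8, 805.6 and 735.6 in control cells, -0.31 ± 0.086) and at 200597_at (-0.24 ± 0.081). Its brightest, 200595_s_at, overlapped (-0.01, interval -0.18 to 0.16). EIF3L was at -0.09 (interval -0.26 to 0.07) and EIF3F at -0.01 (interval -0.16 to 0.15). EIF3C was read only by a probe set with signals of at most 16.8, since those shared with EIF3CL were left out.

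The factors of scanning, start selection and subunit joining were above 0 in 8 of 8 genes (EIF1AY, with means under the 20th percentile, among them), 4 without overlap and none past the threshold. Of all genes 59.2% were above 0 and 12.5% were higher without overlap. EIF1, which guards start codon choice, gave 6926.8, 7122.6 and 6002.6 in FOXA1 against 5668.0, 5616.1 and 5580.1 in control cells (0.25 ± 0.082, limma adjusted p = 0.292), and 4 of its 7 probe sets were higher without overlap. EIF1AX, its partner on the small subunit, gave 2521.2, 2462.8 and 2537.9 in FOXA1 against 2312.7, 2114.2 and 2036.3 in control cells (0.22 ± 0.075). It was higher without overlap at 3 of 4 probe sets. EIF1AD was at 0.35 ± 0.13.

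EIF5, which makes eIF2 hydrolyse its GTP, was named after its values were seen, as was EIF5B, which joins the subunits. EIF5 gave 555.6, 588.3 and 572.1 in FOXA1 against 453.1, 440.2 and 455.9 in control cells at 208290_s_at (0.35 ± 0.075, limma adjusted p = 0.131) and was higher without overlap at its brightest probe set too (0.18 ± 0.092). EIF5B was higher without overlap at 201026_at (129.0, 138.9 and 143.2 in FOXA1, 78.4, 110.6 and 88.8 in control cells, 0.58 ± 0.14, limma adjusted p = 0.170) and at 201027_s_at (0.26). At its brightest it overlapped (0.02, interval -0.16 to 0.20).

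EIF5A, the hypusine-bearing factor that helps ribosomes past difficult peptide bonds, was higher without overlap at all 3 of its probe sets. At 201122_x_at it gave 3133.1, 2934.2 and 2791.3 in FOXA1 against 2155.2, 1939.9 and 2343.6 in control cells (0.46 ± 0.087, limma adjusted p = 0.0973). Its brightest, 201123_s_at, gave 5016.2, 4955.0 and 4699.4 in FOXA1 against 4023.7, 3589.4 and 4237.7 in control cells (0.31 ± 0.082, limma adjusted p = 0.195), and 213753_x_at gave 0.40 ± 0.084. When dim probe sets were left out, 201122_x_at passed (adjusted p = 0.0364). Both 201122_x_at and 213753_x_at carry the _x_at suffix for shared sequence. EIF5A2, the paralog of EIF5A, gave 147.7, 144.5 and 140.4 in FOXA1 against 117.6, 122.6 and 115.1 in control cells at its brightest probe set, 235296_at (0.28 ± 0.10). At 220198_s_at (0.37 ± 0.16) and 235289_at (-0.12 ± 0.21) it overlapped.

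**Figure D3:**
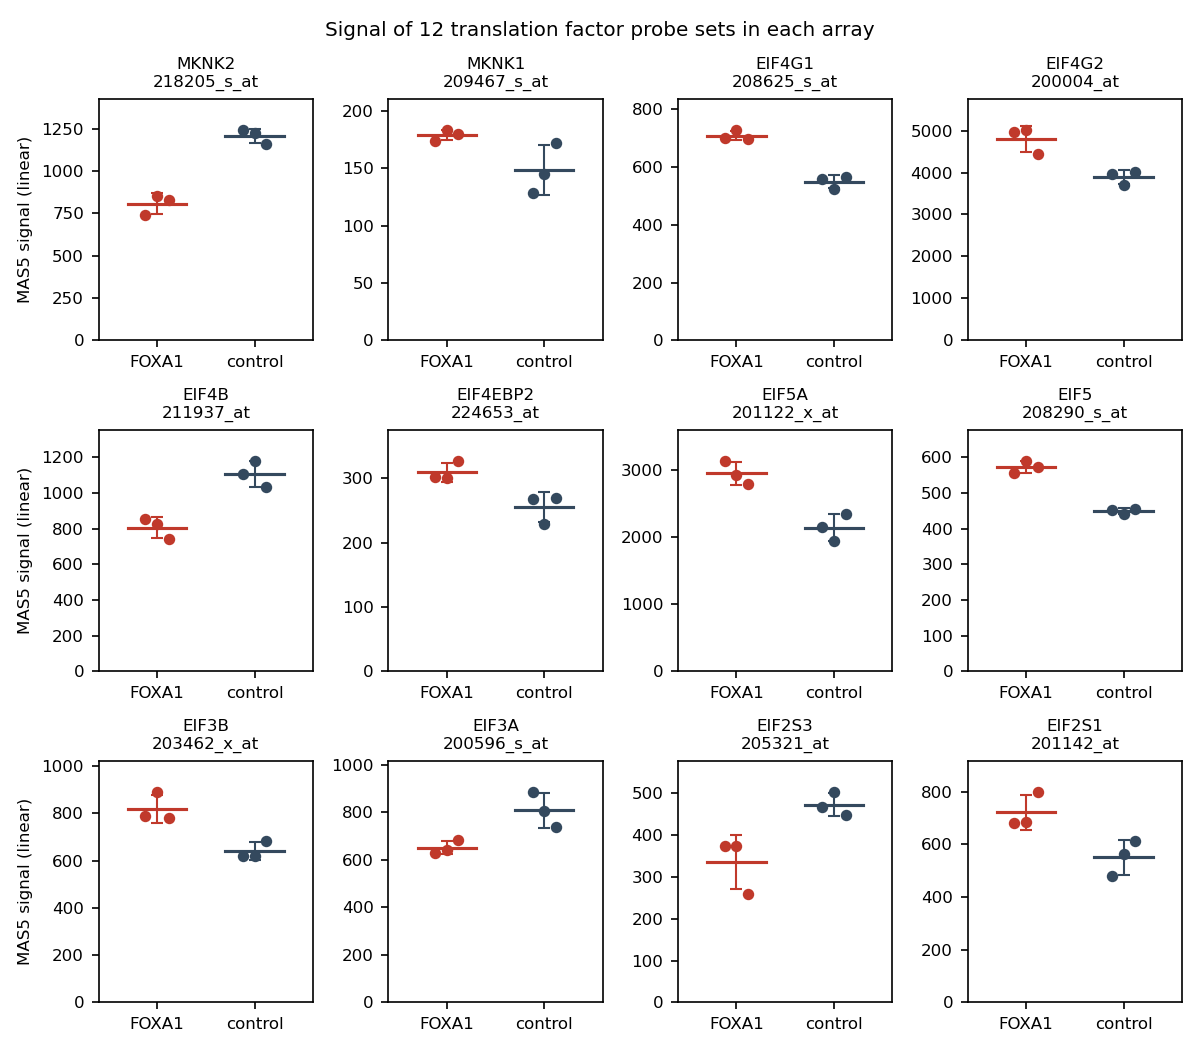
MAS5 signal (linear axis from 0) of 12 member probe sets in each array, FOXA1 left of control, with the mean (line) and SD (bars, n = 3). Each gene is drawn at its probe set with the smallest limma p, a choice that favours separated groups. At the probe sets drawn, MKNK2, EIF4B, EIF3A and EIF2S3 are lower in all FOXA1 arrays and the other 8 higher, as for EIF5 at 555.6 to 588.3 against 440.2 to 455.9. The brightest EIF4B, EIF3A and EIF2S1 probe sets, not drawn, overlap (-0.06, -0.01 and 0.05).

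The elongation factor EEF1A1, which brings aminoacyl-tRNA to the ribosome, gave 10239.8, 9999.9 and 8162.5 in FOXA1 against 7458.2, 7664.6 and 7625.4 in control cells at 213614_x_at (0.31 ± 0.093, limma adjusted p = 0.246). Its 4 probe sets with the _x_at suffix were all higher without overlap (0.29 to 0.32), while 227708_at was at -0.19 and overlapped. FOXA1 replicate 3 was the lowest FOXA1 array at all 4, and without it they passed (0.41 to 0.43, adjusted p = 0.0487 to 0.0498). EEF2, the translocase, gave 6745.6, 6852.6 and 5806.0 in FOXA1 against 5469.5, 5557.3 and 5462.2 in control cells (0.23 ± 0.082, limma adjusted p = 0.316). Quantile normalization left EEF1A1 at 0.06, EEF2 at 0.02 and EIF1 at 0.04. EEF1D, an exchange factor for eEF1A, overlapped at its brightest probe set (0.01, interval -0.15 to 0.18).

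**Figure D4:**
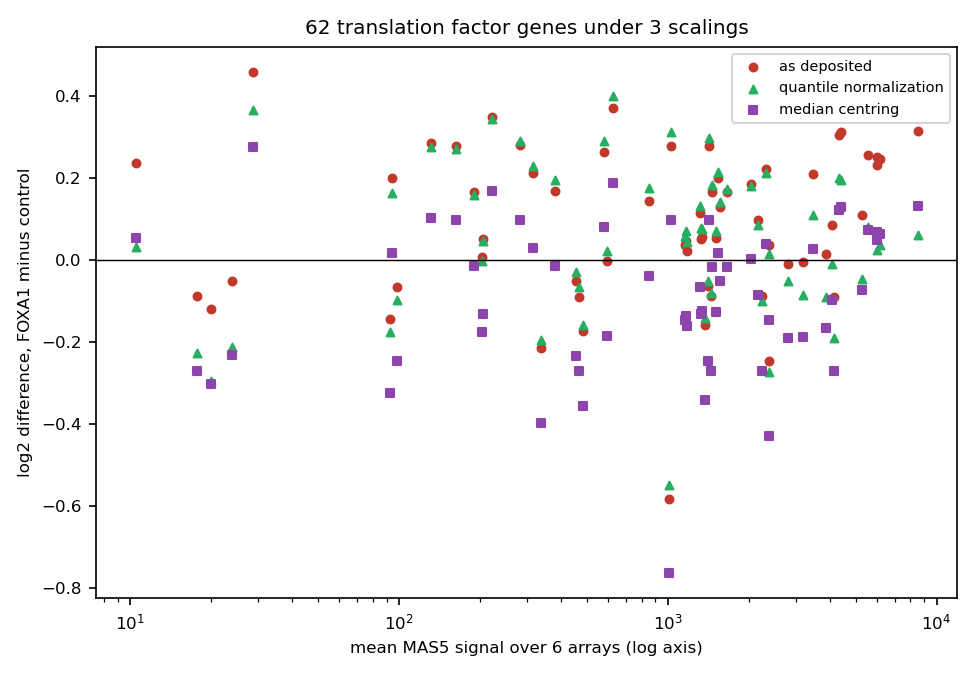
Log2 difference, FOXA1 minus control, of 62 member genes with a mean signal of at least 10, against that mean (log axis), as deposited (circles), after quantile normalization (triangles) and after median centring (squares). EEF1A1, at the far right, is at 0.31 as deposited, 0.06 and 0.13, and MKNK2 is lowest under all 3.

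Of the enzymes that modify elongation factors, EEF1AKMT2, a lysine methyltransferase of eEF1A, was lower without overlap, with 294.5, 308.9 and 335.2 in FOXA1 and 386.5, 352.7 and 350.5 in control cells (-0.22 ± 0.089). EEF1AKMT3, another, was higher without overlap, with 108.9, 102.2 and 92.0 in FOXA1 and 88.8, 85.8 and 89.0 in control cells (0.20 ± 0.12). The kinase of eEF2, EEF2K, was at 0.05 (interval -0.15 to 0.25). The release factor ETF1 and its GTPase partner GSPT1 overlapped, at 0.20 (interval -0.04 to 0.44) and 0.11 (interval -0.06 to 0.29). The noncoding EIF1B-AS1 and EIF3J-DT overlapped too, at -0.05 and -0.14.

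G3BP2 was higher without overlap at 208841_s_at, with 1572.9, 1541.7 and 1571.3 in FOXA1 and 1343.9, 1252.9 and 1268.3 in control cells (0.28 ± 0.070, limma adjusted p = 0.180), and at 208840_s_at (0.30 ± 0.097). Its paralog G3BP1 had 7 probe sets, of which 2 were higher and 1 lower without overlap. The brightest, 201503_at, gave 1461.3, 1623.3 and 1550.9 in FOXA1 against 1396.6, 1372.3 and 1363.9 in control cells (0.16 ± 0.072), and was at -0.02 under median centring. At 222187_x_at, the probe set the study's table holds, the signal was 171.2, 153.1 and 159.4 in FOXA1 against 116.1, 75.1 and 85.2 in control cells (0.83 ± 0.16, limma adjusted p = 0.0973). It passed without dim probe sets (adjusted p = 0.0418), and since the study chose it on these arrays its difference is no independent evidence. At 244396_at the signal was lower, with 34.0, 28.6 and 25.9 in FOXA1 and 35.6, 38.1 and 34.6 in control cells (-0.30 ± 0.21).

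The other 4 G3BP1 probe sets overlapped, at -0.06 (225007_at), 0.00 (201514_s_at), 0.08 (242422_at) and 0.42 (1557350_at). The log2 ratio of 201503_at to 222187_x_at within an array was 3.09 to 3.41 in FOXA1 and 3.59 to 4.19 in control arrays, a difference of -0.67 (two-sided exact permutation test, p = 0.1, adjusted p = 0.244 over 22 pairs). Of 38 member genes with more than 1 probe set above the median signal, 17 had all of these above 0, 4 had all below 0 and 17 had both signs (44.7%, against 50.8% of 5949 such genes overall). EEF1D, EIF4E2, G3BP1 and MKNK2 had probe sets without overlap in both directions. Over the 169 member probe sets, 48 were higher and 10 lower without overlap, against 10.5% and 5.86% of all probe sets, and 1 passed, against 0.0586%.

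In the split by tract the members on chromosome 8 were again left out. The 11 members whose RefSeq start carried the pyrimidine tract had a median of 0.08, 6 above and 5 below 0, with 3 higher and 1 lower without overlap. The 41 without a tract had a median of 0.16, 32 above and 9 below 0, with 16 higher and 3 lower without overlap. Over all genes with a start, the 933 with a tract had a median of 0.02 (142 higher and 90 lower without overlap) and the 14449 without one 0.07 (1803 higher and 1088 lower). EEF1A1 (0.31) and EIF2S3 (-0.16) lay at the ends of the first list. These are mRNA levels, and the tract is known for its effect on translation.

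Among 75 companion genes of the same pathways that were read, of 86 listed, none passed the threshold (limma). At an unadjusted p under 0.05, 15 were higher and 5 lower, against 9.07% and 5.49% of all genes. Without overlap 21 were higher and 3 lower, against 12.5% and 7.25% of all genes. Of 18 genes of the mTORC1 axis 5 were higher and 2 lower without overlap, against the same 12.5% and 7.25%, and 11 overlapped. Of these 18, DDIT4, a stress-induced inhibitor of mTORC1, gave 1116.0, 870.7 and 677.0 in FOXA1 against 1740.6, 1606.7 and 1457.3 in control cells (-0.88 ± 0.15, limma adjusted p = 0.0786). It passed without dim probe sets (0.0298) and without FOXA1 replicate 1 (-1.06, adjusted p = 0.0451). AKT1, a kinase that activates mTORC1, gave 128.5, 131.6 and 114.3 in FOXA1 against 63.0, 78.7 and 84.7 in control cells (0.73 ± 0.14, limma adjusted p = 0.103), and it passed without dim probe sets (0.0464).

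Of the MAP kinase pathway above MNK 7 of 14 listed genes were read. Without overlap 3 were higher and none lower, against 12.5% and 7.25% of all genes. HRAS, a small GTPase, was higher without overlap, with 527.9, 540.1 and 526.7 in FOXA1 and 405.3, 407.9 and 425.6 in control cells (0.36 ± 0.075, limma adjusted p = 0.118), as was ARAF, a kinase (0.39 ± 0.12). The other 4 genes overlapped, with MAPK3 (-0.12 ± 0.21) and MAPK11 (-0.73 ± 0.36) below 0. Of 12 genes of the eIF2alpha kinases and stress response, 4 were higher and none lower without overlap, against 12.5% and 7.25% of all genes. EIF2AK1, the heme-regulated eIF2alpha kinase, was at 0.27 ± 0.087 and PPP1R15A, which guides a phosphatase to eIF2alpha, at 0.41 ± 0.16, while ATF4, the transcription factor that is translated when eIF2alpha is phosphorylated, was at 0.01 ± 0.088 and overlapped.

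Of 26 accessory translation factors 7 were higher and none lower without overlap, against the same 12.5% and 7.25%. NCBP1, the nuclear cap binding protein, was at 0.40 ± 0.10 and ABCF2 at 0.54 ± 0.14. Of the 12 stress granule partners 4 were above and 8 below 0, their median being -0.13. Without overlap 2 were higher (CAPRIN1 at 0.16 and UBAP2L at 0.18) and 1 lower, where 12.5% and 7.25% of all genes were. FXR1, an RNA binding protein of the fragile X family, was lower without overlap (1297.5, 1361.6 and 1046.1 in FOXA1, 1433.3, 1664.9 and 1404.1 in control cells, -0.29 ± 0.11). CNOT1, the scaffold of the deadenylase complex, was at -0.21 ± 0.094 and overlapped.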

How the data were processed

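The authors deposited 1 signal per probe set and array from Microarray Analysis Suite (MAS5), an intensity on a linear scale; the methods then describe RMA log2 conversion and significance analysis of microarrays (SAM), which these values do not include. The trimmed mean (2% off each end) was 100.01 in every array. Here 62 array control probe sets were left out, 25 values listed at 0 were set to 0.1, and log2 signals of the other 54613 went into limma 3.58.1 (R 4.3.3; lmFit, eBayes with an intensity trend) for a two-sided test with Benjamini-Hochberg adjustment and a threshold of 0.05; limma took the place of SAM. The script was tested on simulated data. Symbols came from the platform annotation (41091 probe sets with 1 symbol, 1801 with several, 11721 unnamed here). Several-symbol probe sets were left out, 17 of them with a member symbol, so that EIF4A1, EEF1G, EEF1B2 and PABPC4 are not read. All 66 members matched a current gene. Start windows and member tract counts came from RefSeq tables, without the members on chromosome 8 (EEF1D, EIF3E, EIF3H, EIF4EBP1 and PABPC1).

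Named were members with a call, the 6 smallest p in each direction, the 2 smallest p per role, the 3 with most separated probe sets, MKNK2 and G3BP1 whole, and the 2 companions with the smallest p per list. The members and lists were chosen with earlier results of these data known. Alternatives were no trend, quantile normalization, median centring, a floor at the 20th percentile, no dim probe sets (mean signal at or under 14.5), no _x_at probe sets, the median over probe sets, a block for the replicate number, and leaving out single arrays.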

Additional observations from a re-analysis of the deposited data

How the results depend on the processing

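The count of member genes past the threshold was 1, and 0 with the floor, without the trend, with median centring and with the median over probe sets, and 0 to 2 when 1 array was left out. For member probe sets it was 1, and 0 with the floor, without the trend and with centring, 4 without dim probe sets (EIF4B 211937_at, EIF5A 201122_x_at, G3BP1 222187_x_at and MKNK2 218205_s_at), and 0 to 5 with 1 array left out, the 5 being without FOXA1 replicate 3 (MKNK2 and 4 EEF1A1 probe sets). For companions it was 0, and 2 without dim probe sets (DDIT4, AKT1), and 0 to 1 with 1 array left out. Over all probe sets 32 passed, and 174 without dim probe sets, 24 with quantile normalization, 22 without _x_at probe sets, 37 with the floor, 7 with centring, 1 without the trend and 4 to 76 with 1 array left out.

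Chosen after seeing the data, the count of members higher without overlap, 24, was 0 with centring, and that of members lower, 4, was 7 with quantile normalization. The median of the members, 0.12, was -0.060 with centring, 0.065 with quantile normalization and 0.076 to 0.13 with 1 array left out. MKNK2 at 218205_s_at kept its difference of -0.58 with an adjusted p of 0.0999 with the floor and 0.499 without the trend, was at -0.77 with centring (0.351), and between -0.62 and -0.52 with 1 array left out. G3BP1 222187_x_at was at 0.83 and passed without dim probe sets (0.0418).

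Whether replicate numbers pair the arrays is not settled by these values, and the main test took no block. Deviations of same-numbered arrays correlated at 0.044, 0.164 and 0.107, and each array correlated best with its own number, a hint from the data and not the design. With the replicate block 85 probe sets passed, 2 of them members (MKNK2 218205_s_at, adjusted p = 0.0403, and G3BP1 222187_x_at at 0.83, 0.0463) and 1 companion (DDIT4, 0.0130).

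Centring lowered every difference by the same 0.182, so that by construction 20 of 66 member genes between 0 and that size turned below 0, among them G3BP1 201503_at (-0.018), EIF4A3 (-0.132) and GSPT1 (-0.068), as did G3BP1 242422_at (-0.105). With quantile normalization 5 member genes turned, and 242422_at (-0.039). With 1 array left out 3 to 7 turned, and ranges crossed 0 at G3BP1 201514_s_at (-0.099 to 0.126) and 242422_at (-0.158 to 0.282), EIF1B-AS1 (-0.510 to 0.204) and EIF4A3 (-0.0097 to 0.094). The cause of the moves other than centring was not tested. Dim probe sets carry wide errors, as at PABPC5 (SE 1.04).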
